A study of Gallus gallus with 25 samples.

Results

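MicroRNAs miR-221 and miR-222 were followed in the embryonic gonads of male and female chickens by means of 3 probes of a microRNA array: mmu-miR-221, designed for the mouse miRNA, gga-miR-222a, designed for the chicken miRNA, and gga_candidate_hsa_222, one of the array maker's chicken candidates named after human miR-222. They were chosen by name among the perfect-match mature probes of the array, and they are 3 of 657 such probes. Probes gga-miR-221 and gga-miR-222b, the other 2 mature probes with these numbers in their names, are given beside them.

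The 2 miRNAs are made from neighbouring genes and share their seed, the bases near the 5′ end by which a miRNA mainly recognises its targets. In mammals they are best known for lowering the cyclin-dependent kinase inhibitors CDKN1B and CDKN1C, which hold back cell division, and the receptor KIT, which primordial germ cells and their descendants use for survival and migration. In the gene table of the chicken assembly GRCg7b (RefSeq), MIR222 and MIR221 are neighbouring records on chromosome 1, and a separate record, MIR222B, lies on chromosome 4. That table gives gga-mir-222b as a synonym of both MIR222 and MIR222B, so the locus meant by the gga-miR-222b probe is not settled by it.

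The probe sequences are shown because they decide what each row can measure. The deposited scanner tables give the DNA probe, which is the complement of the miRNA, and the capitals mark the part opposite the seed (bases 2 to 8 of the miRNA).
mmu-miR-221: aaacccagcagacaATGTAGCt
gga-miR-222a: gagacccagtagccagATGTAGCt
gga_candidate_hsa_222: gtgacccagtaatcagATGTAGCt
gga-miR-221: gaaacccagcagacaATGTAGCt
gga-miR-222b: gagacccagtagccagATGTAGTt

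Read as the RNA that each probe complements, with the seed in capitals, the same 5 sequences show what the probes share.
mmu-miR-221: aGCUACAUugucugcuggguuu
gga-miR-222a: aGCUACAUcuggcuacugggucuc
gga_candidate_hsa_222: aGCUACAUcugauuacugggucac
gga-miR-221: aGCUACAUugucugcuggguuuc
gga-miR-222b: aACUACAUcuggcuacugggucuc

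The seed GCUACAU was found in 4 mature probes of the array, namely the 3 members and gga-miR-221. The seed ACUACAU was found in 1, gga-miR-222b. Positions below count from 1 at the 5′ end of the RNA. The mouse and chicken miR-221 probes did not differ over the 22 bases they share, and the chicken probe is 1 base longer. Probe gga-miR-222a differed from gga-miR-222b at 1 of 24 bases, G2A, which lies in the seed. It differed from gga_candidate_hsa_222 at 3 of 24 bases, G12A, C13U and U23A, so these probes are identical over the first 11 bases. It differed from mmu-miR-221 at 11 of the 22 bases compared, with the first 8 bases identical. The rows for miR-222a, miR-222b and the candidate are therefore not independent measurements where an RNA binds more than one of them, and the same holds for the pair of miR-221 probes.

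Small RNA from gonads pooled by sex was labelled with a Cy5 dye and hybridised to 25 one-colour arrays, on which the authors' scanner output gives a median foreground intensity per spot. The groups were male and female embryos at embryonic day (E) 5.5, E6.5 and E9.5, before, around and after the onset of visible sex differences in the gonad. Sex had been assigned by PCR at E5.5 and E6.5 and by the shape of the gonads at E9.5. Arrays came from 2 chips, numbered 4011845 and 50636. No genotype or treatment separates the groups, and every RNA came from a pool, so variation between single embryos cannot be seen. In such bulk samples, fewer cells of a type and less RNA per cell cannot be told apart. The label binds guanine, and the RNAs opposite the 3 member probes hold 6, 6 and 5 G, so brightness was compared between arrays for one probe and not between probes.

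Chip 4011845 held 18 arrays. At E9.5 there were 4 of either sex, at E5.5 there were 3 of either sex, and at E6.5 there were 3 of males and 1 of females. Arrays of different groups share a slide sector under this number, such as sector 4 for female E5.5 replicate 3 and male E6.5 replicate 6. The number may therefore cover several slides, which the labels do not tell apart. Chip 50636 held 7 arrays, with 2 of males and 1 of females at E5.5, and 2 of each sex at E6.5. A probe was taken as above the negative controls where its foreground was higher than their 95th percentile (7 spots) on the same array. An array of chip 4011845 had between 51 and 177 such mature probes (median 113), and one of chip 50636 between 76 and 229 (median 99). The arrays also hold 657 partner probes with 2 mismatched bases. Between 4 and 26 of these exceeded the level on chip 4011845, and between 43 and 180 on chip 50636. Being above the negative controls therefore says less about an exact match on chip 50636. The median foreground of an array ran from 74.5 to 207 on chip 4011845 and from 72 to 454 on chip 50636, at scan exposures of 0.5 to 2 s and 0.1 to 2 s, respectively. Pairs of arrays within a group had a median Pearson r of 0.87 on the same chip (24 pairs) and 0.41 on different chips (17 pairs), so chip 4011845 is described first and chip 50636 on its own. The female E6.5 array of chip 4011845 had the highest median foreground of that chip (207) and the highest negative control level (383), and 64 mature probes exceeded that level. Precision is limited by how few arrays each group holds.

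The label of the tissue was checked with miR-202, a miRNA of the gonads. Probe dre-miR-202 was above the negative controls on 16 of 18 arrays of chip 4011845 and gga-miR-202 on 14. The other probes of that list were seldom or never above them, mmu-miR-202 on 3 arrays, hsa-miR-202 on 2 and gga-miR-202* on 0. None of the 8 probes for white blood cell miRNAs, 10 for striated muscle or 2 for liver exceeded the negative controls on any of these 18 arrays. The neuronal miRNA miR-124 was seen, with mmu-miR-124a above the negative controls on 18 arrays, gga-miR-124a on 15 and dre-miR-124 on 13. Of the other neural probes, gga-miR-128a was above them on 1 array, and gga-miR-9, gga-miR-9*, mmu-miR-9 and dre-miR-9* on 0. Of the 2 probes for endothelial miRNAs, gga-miR-126 was above them on 6 arrays and dre-miR-126* on 0. All these counts are for chip 4011845 alone, and they do not show that other tissues were absent from the RNA on the other chip. With all 25 arrays fitted together, 2 striated muscle probes and both liver probes exceeded the negative controls often enough to be tested. The signal of these probes above the controls therefore came from the other chip, and its source was not tested.

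On chip 4011845, gga-miR-222a was above the negative controls on all 18 arrays and mmu-miR-221 on 15, while gga_candidate_hsa_222 was above them on 0. For comparison, 433 of the 657 mature probes (65.9%) were above them on no array of that chip. The foreground of mmu-miR-221 ran from 183 to 473 (median 327), that of gga-miR-222a from 292.5 to 751.5 (median 415) and that of the candidate from 98.75 to 264.5 (median 141). The 3 arrays on which mmu-miR-221 was not above the negative controls were male E5.5 replicate 2 (negative control level 297), female E5.5 replicate 3 (foreground 183, level 217) and female E6.5 replicate 2 (foreground 330, level 383). Probe gga-miR-221 was not above them on the same 3 arrays. These arrays showed few mature probes of any kind, 51, 66 and 64, the 3 lowest numbers of the chip.

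**Figure D1:**
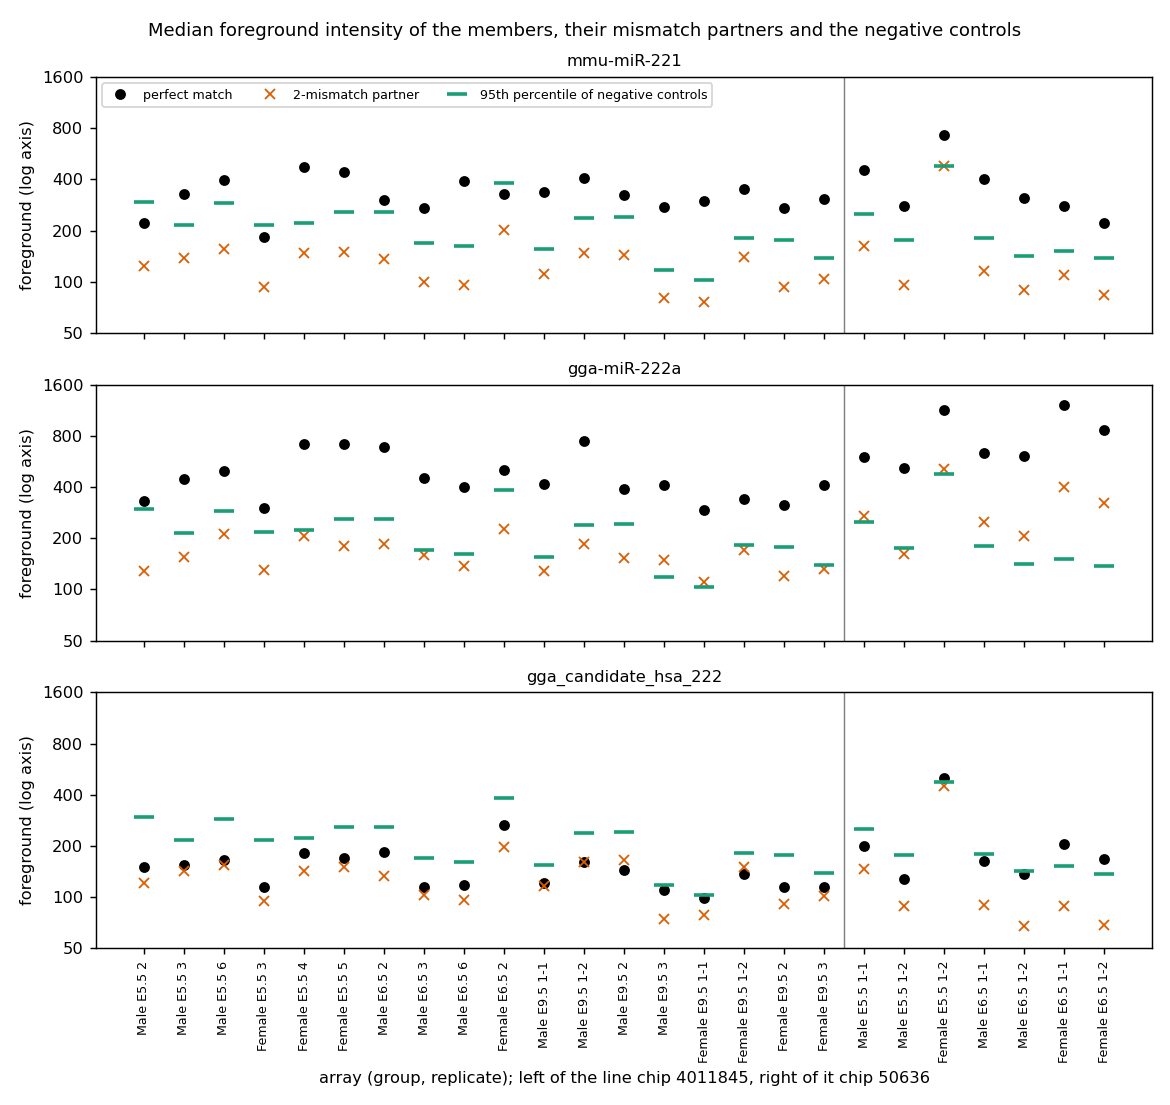
Foreground median of each member on each of the 25 arrays (log axis, arbitrary units of intensity), beside its 2-mismatch partner and the negative control level of the same array. On chip 4011845 the gga-miR-222a points lie above the level on all 18 arrays and the candidate's points on none, and mmu-miR-221 falls below it on 3.

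Each probe has a partner with 2 mismatched bases, against which its brightness was compared. The foregrounds were used without taking off background, so their ratio does not give the share of a signal that needs an exact match. The foreground of mmu-miR-221 was 1.63 to 4.08 times that of its partner on chip 4011845 (median 2.74), and the partner was above the negative controls on 0 of 18 arrays. For gga-miR-222a the ratio was 2.01 to 4.07 (median 2.78), and its partner was above the negative controls on 2 arrays. Both probes were thus brighter than their partners on every array of the chip. The candidate was only 0.879 to 1.48 times as bright as its partner (median 1.17), and it was the brighter of the pair on 15 of 18 arrays. For gga-miR-221 the ratio was 1.58 to 3.47 (median 2.19) and for gga-miR-222b it was 2.47 to 4.71 (median 3.13).

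**Figure D2:**
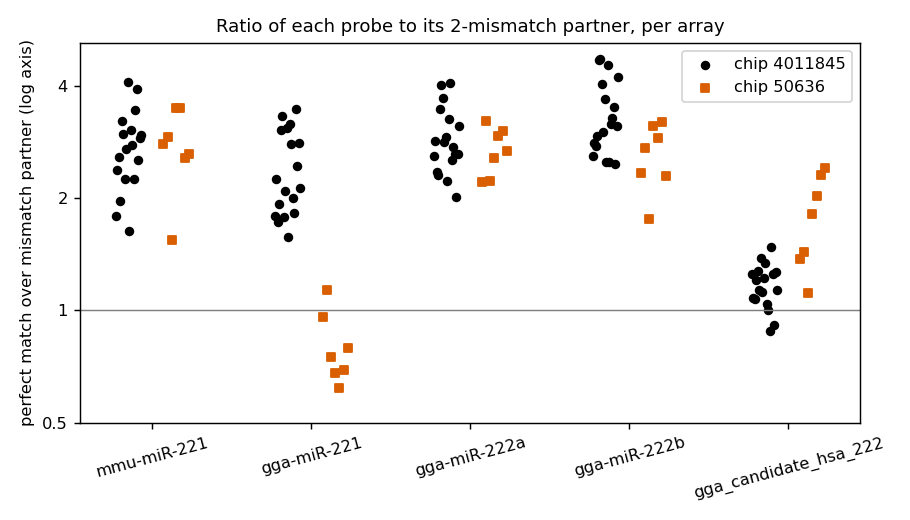
Ratio of the foreground of a probe to that of its 2-mismatch partner on each array (log axis), for the 3 members and the 2 other miR-221 and miR-222 probes, by chip. The line at 1 marks equal brightness; on chip 4011845 the candidate lies near it (median 1.17), and on chip 50636 gga-miR-221 lies mostly below it (median 0.751).

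Levels between groups were compared on background-corrected, quantile-normalised log2 intensities of chip 4011845. In males, mmu-miR-221 read 7.60, 7.88 and 8.28 at E5.5 (replicates 2, 3 and 6), 7.78, 7.92 and 8.14 at E6.5 (the same numbers) and 8.13, 8.13, 8.04 and 8.16 at E9.5 (replicates 1-1, 1-2, 2 and 3). In females it read 7.44, 8.35 and 8.36 at E5.5 (replicates 3, 4 and 5), 7.50 on the single E6.5 array, and 8.15, 8.45, 7.66 and 8.28 at E9.5 (replicates 1-1, 1-2, 2 and 3). The lowest readings, at E5.5 in both sexes and at E6.5 in females, are those of the 3 arrays on which the probe was not above the negative controls, and the male E9.5 arrays lay closest together. Ordered by mean, the groups were female E9.5 (8.13 ± 0.34, SD, n = 4), male E9.5 (8.11 ± 0.05, n = 4), female E5.5 (8.05 ± 0.53, n = 3), male E6.5 (7.94 ± 0.18, n = 3), male E5.5 (7.92 ± 0.34, n = 3) and female E6.5 (7.50, 1 array). Neighbours in this order with replicates were closer to each other than the larger of their SDs. Sorting by mean makes neighbours close, so this does not show that the groups are alike.

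Probe gga-miR-222a read 8.45, 8.24 and 8.61 in males at E5.5, 9.30, 8.68 and 8.16 at E6.5, and 8.45, 8.96, 8.39 and 8.76 at E9.5, in the same order of replicates. In females it read 8.42, 9.06 and 9.10 at E5.5, 8.51 at E6.5, and 8.09, 8.30, 7.99 and 8.77 at E9.5. The highest array was a male one of E6.5 and the lowest a female one of E9.5, and the groups overlapped. By mean, the order was female E5.5 (8.86 ± 0.38, n = 3), male E6.5 (8.72 ± 0.57, n = 3), male E9.5 (8.64 ± 0.27, n = 4), female E6.5 (8.51, 1 array), male E5.5 (8.43 ± 0.18, n = 3) and female E9.5 (8.29 ± 0.35, n = 4). Here too, neighbours in the order with replicates lay within the larger of their SDs, which the sorting favours. The ends of the order, both female, differed by -0.57 (E9.5 minus E5.5), a larger size than either SD.

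**Figure D3:**
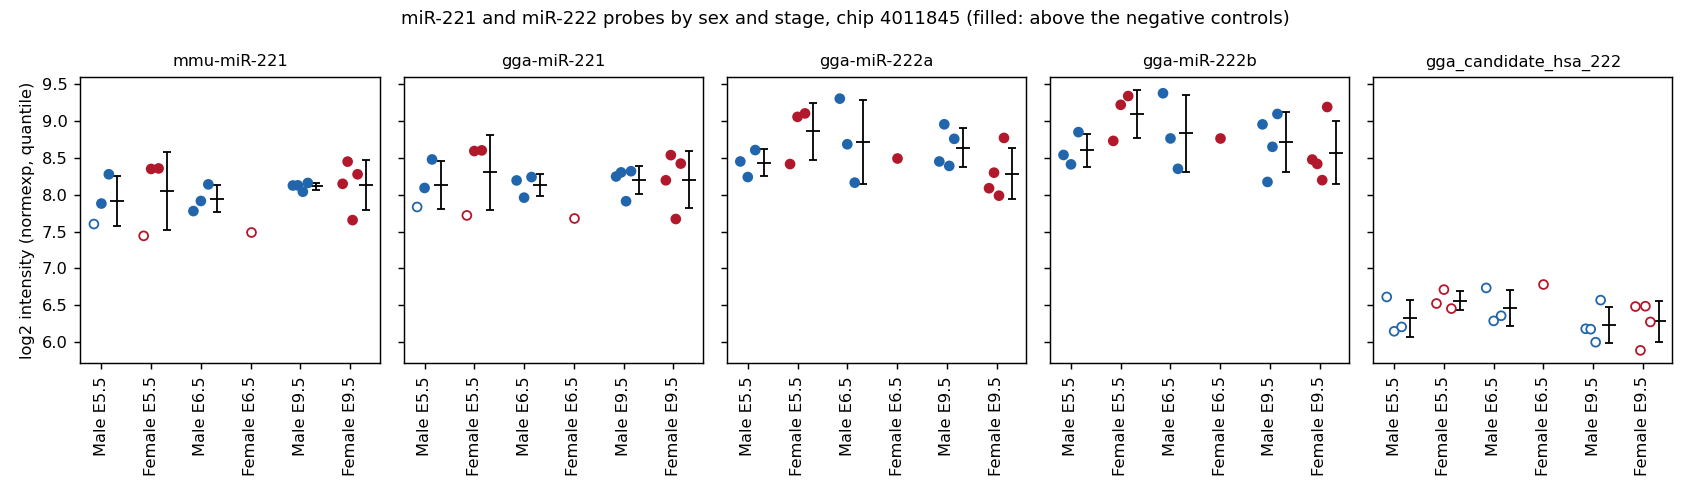
Normalised log2 intensity of the 3 members and of gga-miR-221 and gga-miR-222b by sex and embryonic day on chip 4011845; points are arrays (open where not above the negative controls) and bars are group means with SD. The groups of mmu-miR-221 and gga-miR-222a overlap between sexes at E5.5 and E9.5, and the candidate's points are open throughout.

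The comparison of the sexes asked whether either miRNA differed between the future testis and the future ovary. Neither of the 2 tested members was called in a sex comparison, at a limma adjusted p under 0.05. The background share was the same, since of 163 tested probes 0% were called at E5.5, 0% at E6.5, 0% at E9.5 and 0% for the mean of E5.5 and E9.5 (with 3, 10, 11 and 12 probes at an unadjusted p under 0.05). With the replicate number as a block, which the shared numbers of the E9.5 arrays allow, 1 probe was called at E9.5, and it was not a member. At E5.5, the male minus female difference of mmu-miR-221 was -0.13 ± 0.28 log2 units (SE, 95% interval -0.72 to 0.46, limma adjusted p = 0.918). At E9.5 its difference was -0.02 ± 0.24 (-0.53 to 0.49, limma adjusted p = 0.981), which bounds a sex difference at that stage between 0.69-fold and 1.40-fold, males over females. The sexes were thus close in mean for miR-221 at E9.5, with an interval that still allows differences of those sizes.

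The male minus female difference of gga-miR-222a was -0.43 ± 0.30 at E5.5 (95% interval -1.07 to 0.21, limma adjusted p = 0.918) and 0.35 ± 0.26 at E9.5 (-0.20 to 0.91, limma adjusted p = 0.835). These directions oppose each other, and averaged over both stages the difference was -0.04 ± 0.20 (-0.46 to 0.39, limma adjusted p = 0.931). The change of the sex difference from E5.5 to E9.5, tested as an interaction, was 0.78 ± 0.40 (-0.07 to 1.63) with an unadjusted p of 0.069 and a limma adjusted p of 0.989. No probe was called in that interaction (0% of 163, with 3 at an unadjusted p under 0.05). For mmu-miR-221 the same interaction was 0.11 ± 0.37 (-0.66 to 0.88, limma adjusted p = 0.989).

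At E6.5 only 1 female array of chip 4011845 was available, and mmu-miR-221 was not above the negative controls on it. The mean of the 3 male arrays (7.94) exceeded the measured female value (7.50), which allows only a bound of at least 1.00-fold higher in males (limma adjusted p = 0.698 for the measured difference). Bounds of this kind set the dim array to the lowest signal above the negative controls on it. They leave out the variation between arrays, so a true difference can be smaller or reversed. For gga-miR-222a, measured on all 4 arrays, the male minus female difference was 0.21 ± 0.43 (-0.69 to 1.12, limma adjusted p = 0.823). No group of either miRNA stood clear of the other sex at E5.5 or E9.5 on this chip, where 4.32% and 8.02% of probes did.

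**Figure D4:**
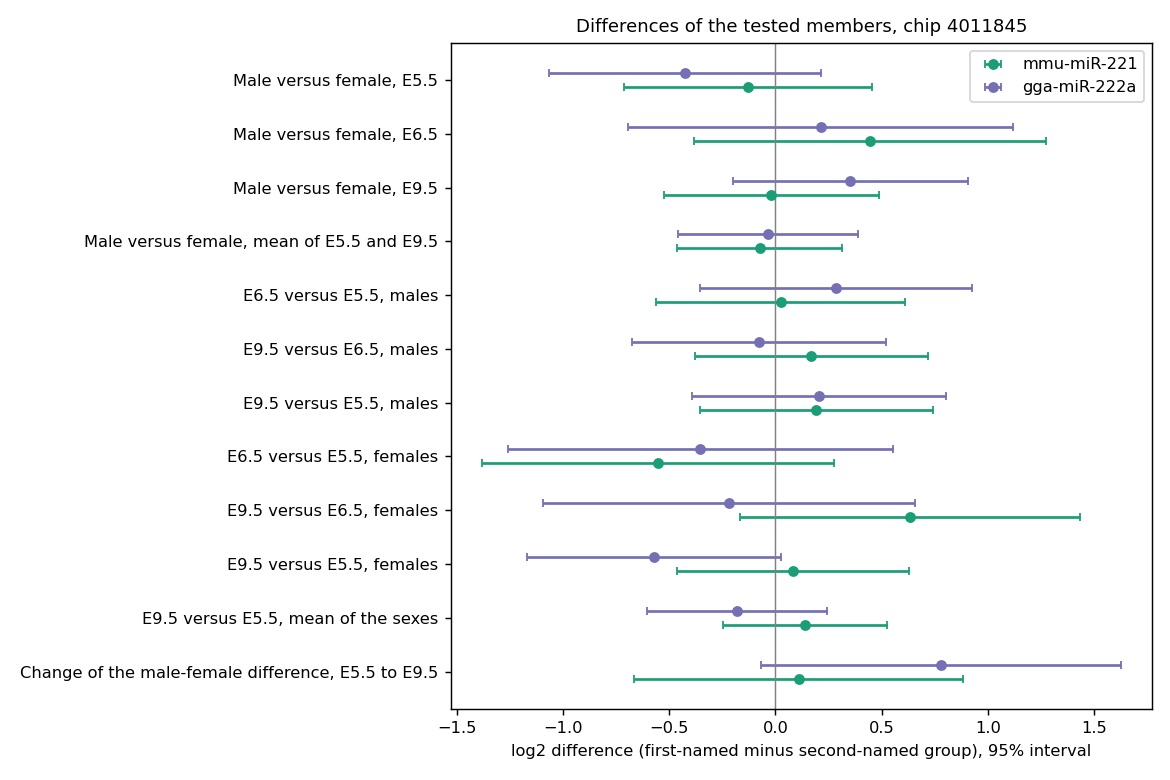
Differences of mmu-miR-221 and gga-miR-222a in the 12 comparisons on chip 4011845 (log2 units, points with 95% intervals). All intervals include 0.

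Between stages, neither tested member was called in any comparison. Of all 163 tested probes, 23.9% were called from E5.5 to E9.5 over the mean of the sexes, 6.75% in males and 7.98% in females. Between E6.5 and E9.5, 1.23% were called in males and 9.2% in females, and between E5.5 and E6.5 limma called 0% in either sex (3 probes in males and 6 in females had an unadjusted p under 0.05). Changes with stage were therefore found on these arrays, though not for these members.

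From E5.5 to E9.5, mmu-miR-221 differed by 0.19 ± 0.26 in males (95% interval -0.36 to 0.74, limma adjusted p = 0.704) and by 0.08 ± 0.26 in females (-0.47 to 0.63, limma adjusted p = 0.830). Over the mean of the sexes the difference was 0.14 ± 0.18 (-0.25 to 0.53, limma adjusted p = 0.571). In males the step from E5.5 to E6.5 was 0.02 ± 0.28 (-0.56 to 0.61) and the step from E6.5 to E9.5 was 0.17 ± 0.26 (-0.38 to 0.72, limma adjusted p = 0.856). The miR-221 level in males thus moved by less than its standard error at each of these steps. In females the E6.5 array was the dim one. The bounds against it were 1.08-fold higher at E5.5 (measured 8.05 against 7.50) and 1.14-fold higher at E9.5 (measured 8.13 against 7.50). These leave out the variation between arrays, and the 95% intervals of both measured differences included no change. The E5.5 mean also holds replicate 3, on which the probe was itself not above the negative controls. Male arrays of different stages overlapped for both members, in pairs of groups where 2.5% (E5.5 and E6.5), 10.6% (E6.5 and E9.5) and 17.9% (E5.5 and E9.5) of tested probes did not.

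From E5.5 to E9.5, gga-miR-222a differed by -0.57 ± 0.28 in females (95% interval -1.17 to 0.03) with an unadjusted p of 0.0599 and a limma adjusted p of 0.173, the lowest adjusted p of either member in the 12 comparisons. In males the same difference was 0.21 ± 0.28 (-0.39 to 0.81, limma adjusted p = 0.704). The female arrays of E5.5 (8.42 to 9.10) and E9.5 (7.99 to 8.77) overlapped, in a pair of groups where 38.3% of the tested probes did not. Between the steps, males differed by 0.29 ± 0.30 from E5.5 to E6.5 and by -0.08 ± 0.28 from E6.5 to E9.5 (limma adjusted p = 0.998 and 0.961). Females differed by -0.35 ± 0.43 and -0.22 ± 0.41 at these steps (limma adjusted p = 0.754 and 0.753).

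The companion probes, too, were called in none of the 12 comparisons. For gga-miR-222b the E9.5 minus E5.5 difference in females was -0.53 ± 0.30 (limma adjusted p = 0.226), and the male minus female difference at E9.5 was 0.15 ± 0.28 (limma adjusted p = 0.895), against -0.57 and 0.35 for gga-miR-222a. For gga-miR-221 they were -0.10 ± 0.27 (limma adjusted p = 0.813) and -0.01 ± 0.25 (limma adjusted p = 0.981), against 0.08 and -0.02 for mmu-miR-221, so the first differs in sign. Because each companion differs from its member by at most 1 base over the length they share, this is not an independent measurement.

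Both tested members varied little over the chip. The SD over the 18 arrays was 0.31 for mmu-miR-221, 25th lowest of 163, and 0.37 for gga-miR-222a, 49th lowest, against a median of 0.48 over all tested probes. Across the 18 arrays, which share groups and normalisation, mmu-miR-221 correlated with gga-miR-221 at a Pearson r of 0.92, gga-miR-222a with gga-miR-222b at 0.74 and mmu-miR-221 with gga-miR-222a at 0.24. For gga-miR-221 the r was higher, 0.48 with gga-miR-222a and 0.42 with gga-miR-222b, and for mmu-miR-221 with gga-miR-222b it was 0.23. The miRNAs from neighbouring genes therefore followed each other less closely over these arrays than did probes of near-identical sequence, as a description without a test. On chip 50636 (7 arrays) the r was -0.12 between the miR-221 probes, 0.77 for gga-miR-222a with gga-miR-222b and -0.58 for mmu-miR-221 with gga-miR-222a. The miR-221 probes thus did not follow each other there. Apart from its namesake, the probes most like mmu-miR-221 over the 18 arrays were hsa-miR-23a (0.70), gga-miR-181a (0.69), dre-miR-145 (0.69) and rno-miR-363-3p (0.67). Those most like gga-miR-222a were gga-miR-181b (0.79), dre-miR-181c (0.75), gga-miR-222b (0.74), mmu-miR-292-5p (0.65) and dre-miR-456 (0.59).

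The gap between both tested members on one array shows whether they shifted unequally between arrays, while its own size depends on the probes and the dye. It was picked out after the values were seen and was not tested. The gga-miR-222a minus mmu-miR-221 gap was 0.85, 0.36 and 0.33 log2 units in males at E5.5, 1.53, 0.77 and 0.02 at E6.5, and 0.33, 0.83, 0.35 and 0.60 at E9.5. In females it was 0.97, 0.71 and 0.75 at E5.5, 1.01 on the E6.5 array, and -0.06, -0.15, 0.33 and 0.49 at E9.5. All 3 female E5.5 arrays lay above all 4 female E9.5 arrays, as they or the reverse did for 36.9% of all gaps between 2 tested probes, so such a separation was common between these groups. The male groups of E5.5 and E9.5 overlapped (19.5% of gaps did not). The gaps of 0.97 in a female E5.5 array (replicate 3), 0.85 in a male E5.5 array (replicate 2) and 1.01 in the female E6.5 array are against a mmu-miR-221 reading that was not above the negative controls, so they have no sure size.

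**Figure D5:**
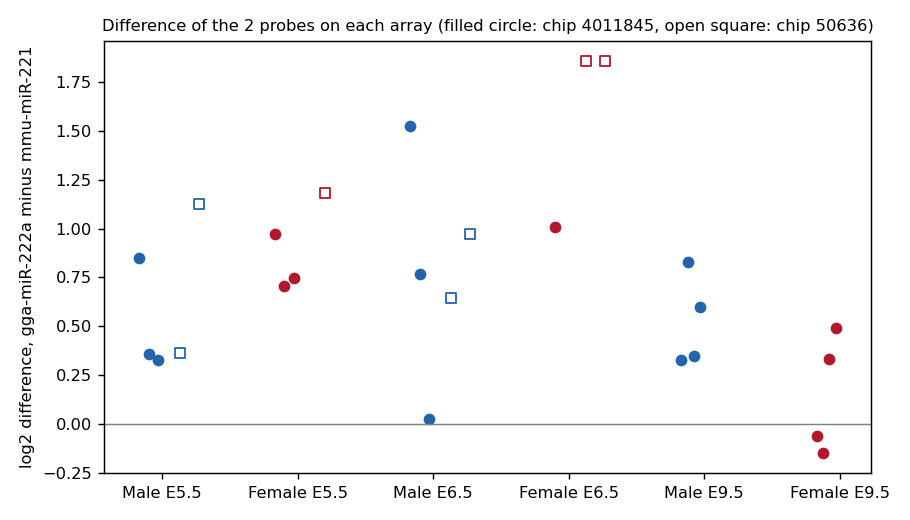
Gap between gga-miR-222a and mmu-miR-221 on each array (log2 units) by sex and embryonic day, with the chips marked by different symbols. On chip 4011845 the female arrays of E5.5 (0.71 to 0.97) lie above those of E9.5 (-0.15 to 0.49), as in 36.9% of gaps between tested probes in either direction, and the 0.97 is from an array where mmu-miR-221 was not above the negative controls; the 2 female E6.5 arrays of chip 50636 coincide at 1.86.

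The candidate probe gave no level on chip 4011845. Its normalised readings, all from arrays where it did not exceed the negative controls, had group means from 6.23 to 6.78, and no fold or difference is given for them. Over the 18 arrays the probes most like it were hsa-miR-494 (Pearson r 0.83), rno-miR-140* (0.80), mmu-miR-494 (0.79), dre-miR-140* (0.78) and dre-miR-457b (0.74, 17 arrays), and its r with mmu-miR-221 was -0.47. An RNA with the candidate's exact sequence was thus not detectable above the negative controls on these arrays.

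On chip 50636, mmu-miR-221 and gga-miR-222a were above the negative controls on all 7 arrays. The foreground of mmu-miR-221 was 454 and 278 in males at E5.5, 735.5 on the female E5.5 array, 404 and 313 in males at E6.5, and 281 and less than that in females at E6.5 (replicates 1-1 and 1-2). That of gga-miR-222a was 599 and 521.5, 1135, 633.5 and 605.75, and 1211.5 and 863.75 in the same order. The female E5.5 array, the brightest for mmu-miR-221, is the one with a median foreground of 454 and 229 mature probes above the negative controls. It was scanned with an exposure of 2 s, the male E5.5 arrays with 0.5 and 0.2 s, and in either sex the E6.5 arrays with 0.2 and 0.1 s. Foreground values of arrays with different exposures are given side by side and not compared. At E6.5, where each exposure was used once per sex, gga-miR-222a was brighter in the female array and mmu-miR-221 in the male array at both exposures. Both arrays of a sex came from the same sector of the slide (3 in males, 4 in females). The labels do not say whether they came from one pool, so the exposures may not be independent repeats.

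Normalised within that chip, gga-miR-222a read 8.66 and 9.25 in males at E5.5, 9.60 in the female, 9.10 and 9.18 in males at E6.5, and 9.79 and 9.79 in females at E6.5. No female array overlapped the 4 male arrays, as was so for 21.6% of the 116 probes tested there. On this chip the males lay in slide sectors 1 and 3 and the females in sectors 2 and 4. Sex and sector therefore cannot be told apart there. The standard errors on this chip rest only on the differences between arrays 1-1 and 1-2 of a group. Both arrays of such a group lay in the same sector, so these errors may reflect technical spread alone. At E6.5 the male minus female difference was -0.66 ± 0.21 (2 against 2 arrays, limma adjusted p = 0.125), and it was not called. Probe mmu-miR-221 went the other way, with 8.46 and 8.20 in males and 7.94 and 7.94 in females at E6.5, a difference of 0.40 ± 0.13 (limma adjusted p = 0.129). At E6.5 the sexes did not overlap for 60.3% of tested probes on that chip and 2.59% of them were called, so a lack of overlap between 2 and 2 arrays was common there. On chip 4011845 the gga-miR-222a difference at E6.5 had the opposite sign (0.21 ± 0.43), and whether the chips differ in it was not tested.

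The candidate exceeded the negative controls on all 3 female arrays of chip 50636 and on none of the 4 male arrays, a pattern shown by 8 of 657 mature probes (1.22%). The sexes lay in different slide sectors there, so sex and sector cannot be told apart. The labels do not say whether both female E6.5 arrays came from one pool. Its foreground was 503 on the female E5.5 array (level 478) and 204.5 and 166.5 on the female E6.5 arrays (levels 152 and 138). In males it was 199.75 and 127.5 at E5.5 and 164.25 and 137.5 at E6.5, below the level of each array. Its mismatch partner read 451 on the female E5.5 array, and 89 and 69 on the female E6.5 arrays, so the match stood clear of its partner at E6.5 and hardly at E5.5. The normalised readings were 6.84 and 6.87 in males and 6.66 in the female at E5.5, and 7.06 and 6.96 in males and 7.43 and 7.40 in females at E6.5.

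Within that chip the candidate was called higher in females at E6.5 than at E5.5, by 0.76 ± 0.12 (limma adjusted p = 0.0157), in a comparison that called 31% of the 116 tested probes. It rests on 1 E5.5 array, the bright one, whose part in the result was not tested. Between the sexes at E6.5 it was not called (limma adjusted p = 0.110), and the probe exceeded the negative controls on no E6.5 array of chip 4011845. The gga-miR-221 probe, whose sequence includes that of mmu-miR-221, was on this chip dimmer than its mismatch partner on 6 of 7 arrays (ratio 0.62 to 1.13, median 0.751), and the partner itself was above the negative controls on all 7. There mmu-miR-221 was 1.54 to 3.48 times as bright as its partner (median 2.79), and the partner was above the negative controls on 0 arrays. For gga-miR-222a the ratio was 2.21 to 3.22 (median 2.67), with the partner above the negative controls on 6 of 7 arrays, against 2 of 18 on chip 4011845.

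All 25 arrays were also fitted together with the chip as a term, which tested 213 probes, the candidate among them. Neither mmu-miR-221 nor gga-miR-222a was called in any comparison. The background was 0% for each sex comparison except E9.5 (1.41%), 0% for the interaction and for E5.5 to E6.5 in either sex, and 4.69% in males and 20.7% in females for E6.5 to E9.5. For E5.5 to E9.5 it was 13.1% in males, 16% in females and 29.1% over the mean of the sexes. Both came nearest to the threshold in females between E6.5 and E9.5, where mmu-miR-221 differed by 0.62 ± 0.23, E9.5 minus E6.5 (limma adjusted p = 0.0549) and gga-miR-222a differed by -0.61 ± 0.27 (limma adjusted p = 0.0964). The candidate was called lower there (limma adjusted p = 0.0239). It exceeded the negative controls on no E9.5 array and, at E6.5, on the female arrays of chip 50636 alone, so no size is given. All E9.5 arrays but only 1 of 3 female E6.5 arrays were on chip 4011845, so these values rest on the chip term.

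Other miRNAs known in mammals to act on cell division were taken from lists and set beside the members. Of 20 listed probes for miRNAs of the miR-17 and paralogous clusters, which in mammals also lower CDK inhibitors, 13 were tested. limma called 0 of these 13 in any of the 12 comparisons (1 from E5.5 to E9.5 over both sexes without female E9.5 replicate 1-2 or with the deposited series values), and their median difference from E5.5 to E9.5 over the mean of the sexes was -0.05, against -0.02 over all 163 tested probes. The list does not hold every probe of these clusters. Outside it, and picked out after the values were seen, dre-miR-17a rose by 0.53 (limma adjusted p = 0.0298) and rno-miR-363-3p by 0.76 (limma adjusted p = 0.0323) in that comparison. Of miRNAs known in mammals to restrain division, 14 of 27 were tested, and in the same comparison 9 rose and 0 fell, with a median of 0.56. Of all 163 tested probes, 23.9% were called there, 30 of them higher. The listed probes that rose were for let-7, miR-15b and miR-16. Some were for the same miRNA under different species names, so they are not independent. Among them, gga-let-7a rose by 1.32 (limma adjusted p = 0.000114) and gga-let-7c by 1.04 (limma adjusted p = 0.000611). The count of 9 was 5 without male E5.5 replicate 2 or without female E5.5 replicate 4, and 4 with the replicate block.

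In that comparison, which called 23.9% of all tested probes, 7 of 8 tested probes for miRNAs of mesenchyme and smooth muscle rose. Among them, dre-miR-199* rose by 1.57 (limma adjusted p = 3.14e-05). The probes that rose were for miR-143, miR-145 and miR-199, some for the same miRNA under different species names, so they are not independent. The other tested probe, dre-miR-214, was not called, and hsa-miR-199b was above the negative controls on 0 arrays of the chip. The count of 7 was 5 without male E5.5 replicate 2. From the single female E6.5 array to E9.5, dre-miR-214 fell by 1.95, while dre-miR-143 rose by 1.30 and dre-miR-199* by 1.60. In the red blood cell list, dre-miR-144 and hsa-miR-144 were above the negative controls on 0 arrays of the chip. Both tested probes of the erythroid miRNA miR-451 rose from E5.5 to E9.5 over the mean of the sexes. The rise was 1.53 for dre-miR-451 (limma adjusted p = 0.000143) and 1.53 for hsa-miR-451 (limma adjusted p = 0.00118). None of the 3 gonad, 3 neural and 1 endothelial probes tested was called there, though 3 of 3 neural probes fell with the replicate block, 2 without male E5.5 replicate 3, and 1 without female E5.5 replicate 5 or with all 25 arrays. No list had a call in a sex comparison. The summed foreground of the mesenchyme list ran from 1655 to 8836 over the 18 arrays, that of the red blood cell list from 491.5 to 1687.5 and that of the neural list from 879 to 3534. Against the single E6.5 array in females, dre-miR-124 fell by 1.61 and mmu-miR-124a by 1.87 to E9.5 (limma adjusted p = 0.0475 for each), and 0 probes were called in that comparison without female E9.5 replicate 1-1, 1-2 or 3. The part of these cell types in the levels of miR-221 and miR-222 was not tested.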

How the data were processed

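The scanner tables deposited by the authors give, per the file headers, a median foreground intensity for each spot, and their series table of intensity values is an exact straight line of those medians on each array. The sources used here do not say how its constants were chosen. There were 1412 probes per array: 657 mature, 657 partners with 2 mismatches, 74 for hairpins, 17 positive and 7 negative controls. Excluded spots were left out, and no local background was used.

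From the deposited intensities, foreground medians were corrected with normexp (offset 50) over all spots, put on the log2 scale, and quantile-normalised over the mature probes with limma 3.58.1 in R 4.3.3, over the 18 arrays of chip 4011845. A mature probe was tested if above the negative controls (their 95th percentile) on at least 3 of these, which kept 163. limma fitted 6 group means, with 12 contrasts and Benjamini-Hochberg adjustment over all tested probes (called at an adjusted p under 0.05). The procedure was tested on simulated data with independent arrays and every probe detected. That test does not cover paired arrays or probes near the negative controls. The labels do not say whether arrays 1-1 and 1-2 of a group came from one pool. The p-values therefore reflect only how much these arrays vary, which may be partly technical. Same-numbered arrays deviated together for all 4 pairs of males and females at E9.5 (r 0.14 to 0.44). So did all 3 pairs of males at E5.5 and at E6.5 (0.33 to 0.76). The titles' numbers were therefore read as possible pairs there. No r between differently numbered arrays is given beside these values, so they do not show that the numbers mark pairs. The main comparisons did not use this pairing, so their standard errors, intervals and p-values treat the arrays as unpaired. It entered only through the replicate block, as an alternative setting.

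Named probes were the members, the other miR-221 and miR-222 probes, the 5 tested probes most correlated with each member, and examples from the lists (gonad, red and white blood cells, endothelium, mesenchyme and smooth muscle, striated muscle, neural, liver, and 2 lists of cell division miRNAs). The members, lists and tests were chosen with earlier results of these data known. Alternatives were other chips, background corrections, scalings, filters, blocks and covariates, and leaving out each array. The probes' DNA sequences come from the scanner tables.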

Additional observations from a re-analysis of the deposited data

Results flagged for a closer look

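In males at E9.5, the gap between gga-miR-222b and gga-miR-221 on one array (replicate 1-2) stood far from the other 3, its distance to the nearest being 0.923 of the whole range of the group. Chance alone marks about 1 in 20 groups in this way. On that array gga-miR-222a (8.96) exceeded gga-miR-222b (8.17) by 0.78, while it lay below gga-miR-222b on every other array of chip 4011845. These were the highest gga-miR-222a and the lowest gga-miR-222b reading of the group. The array enters the male E9.5 mean of gga-miR-222a. Leaving out single arrays, this one among them, the male minus female difference of gga-miR-222a at E9.5 ranged from 0.25 to 0.52.

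The candidate probe gga_candidate_hsa_222, on no array of chip 4011845 above the negative controls, was above them on 3 arrays of chip 50636, with a foreground of 503 in the female E5.5 array and of 204.5 and 166.5 in the female E6.5 arrays. The comparisons on chip 4011845 do not use these arrays.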

How the results depend on the processing

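Neither mmu-miR-221 nor gga-miR-222a was called in any comparison under any of the 29 alternative settings, so every reversal of sign below is of a difference that was not called, and the cause was not tested. With the replicate block, mmu-miR-221 differed by 0.48 between the sexes at E5.5, 0.23 over the mean of E5.5 and E9.5, 0.34 between E6.5 and E5.5 in females and -0.50 in the interaction. Under the same block, gga-miR-222a gave 0.15 and 0.25 in those sex comparisons, 0.17 between E6.5 and E5.5 in females and 0.025 between E9.5 and E5.5 over both sexes. Also with that block, gga-miR-221 gave 0.52 and gga-miR-222b 0.067 between E9.5 and E5.5 in females. Beyond the pairs named above, same-numbered arrays did not all deviate together. In males, replicate 2 had an r of 0.52 between E6.5 and E9.5 and 0.55 between E5.5 and E9.5. Replicate 3 had -0.09 in both of these comparisons, -0.25 in females between E5.5 and E9.5, and 0.05 between the sexes at E5.5. With all 25 arrays, gga-miR-222a differed by -0.29 between the sexes at E6.5, 0.017 in males between E6.5 and E9.5 and 0.059 in females between E5.5 and E6.5, and gga-miR-221 by 0.063 from E5.5 to E9.5 in females. On chip 50636 alone gga-miR-222a gave -0.66 between the sexes at E6.5 and 0.20 from E5.5 to E6.5 in females. With the slide sector as a block it gave -0.074 between the sexes at E6.5, and gga-miR-222b -0.014 at E9.5. With 1-1 and 1-2 averaged, mmu-miR-221 gave 0.032 and gga-miR-221 0.016 between the sexes at E9.5. Scaling to the 75th percentile gave mmu-miR-221 -0.036 in the interaction and gga-miR-221 0.085 from E5.5 to E9.5 in females. It moved the median of all tested probes from -0.27 to 0.17 between E6.5 and E5.5 in females and from 0.25 to 0.0022 between the sexes at E6.5, and that of the interaction from 0.026 to -0.20. The deposited series values gave gga-miR-222a 0.17 from E6.5 to E9.5 and gga-miR-221 0.092 from E5.5 to E9.5 in females.

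Leaving out single arrays, the differences of mmu-miR-221 ranged from -0.43 to 0.031 between the sexes at E5.5, -0.18 to 0.085 at E9.5 and -0.22 to 0.0058 over their mean, from -0.14 to 0.21 between E5.5 and E6.5 in males, -0.22 to 0.24 between E5.5 and E9.5 in females and -0.012 to 0.23 over both sexes, and from -0.050 to 0.41 in the interaction. Those of gga-miR-222a ranged from -0.079 to 0.49 between the sexes at E6.5, -0.15 to 0.045 over the mean of E5.5 and E9.5, and in males from -0.0088 to 0.57 between E5.5 and E6.5 and -0.36 to 0.22 between E6.5 and E9.5. Those of gga-miR-221 ranged from -0.19 to 0.10 between the sexes at E9.5 and -0.39 to 0.085 between E5.5 and E9.5 in females.

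Counts over all probes moved more. Chip 50636 alone called 18 between the sexes at E5.5, 3 at E6.5 and 36 between E5.5 and E6.5 in females. Testing without a detection filter called 13 between the sexes at E6.5, and in females 12 from E5.5 to E6.5 and 29 from E6.5 to E9.5. Between the sexes at E9.5, 3 were called with all 25 arrays, 3 with the compared arrays alone and 1 with the replicate block. From E6.5 to E9.5 males had 10 with all arrays, 0 with the series values and 8 with the sector block. Females had 44 with all arrays, 0 with the 75th percentile, 0 with the replicate block, 0 with 1-1 and 1-2 averaged, 42 with the compared arrays alone, 30 with exposure as a covariate and 3 with the sector block. From E5.5 to E9.5 males had 28 with all arrays and 18 with the sector block, and females 34 with all arrays, 23 with the 75th percentile, 33 with the compared arrays alone and 32 with exposure. The compared arrays alone called 3 from E5.5 to E6.5 in females. Over both sexes 62 were called with all arrays and 24 with 1-1 and 1-2 averaged. Single arrays left out gave 0 to 1 between the sexes at E9.5 (1 without male replicate 3), 0 to 4 for males between E6.5 and E9.5 (0 without male E6.5 replicate 2, 4 without replicate 6) and 0 to 19 in females. From E5.5 to E9.5 they gave 6 to 18 in males (6 without male E5.5 replicate 2, 18 without replicate 3, 7 without male E9.5 replicate 1-1), 7 to 17 in females (7 without female E5.5 replicate 4, 8 without replicate 3) and 18 to 53 over both sexes (18 without male E5.5 replicate 2, 23 without female E5.5 replicate 3 or 4, 24 without male E9.5 replicate 1-1 or 1-2, 25 without female E9.5 replicate 1-1).

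As a detection level chosen after the data were seen, the highest negative control put the candidate above it on 0 arrays of chip 4011845, and the median negative control on 16. Detection therefore limits the candidate, and on 3 arrays miR-221.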
